A study of Mus musculus with 6 samples.

Results

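The genes Id1, Id2, Id3, Smad6, Smad7, Skil, Mstn, Inhba and Fst were followed through 6 mRNA libraries of C2C12 cells. These 9 genes of the TGF-beta, BMP and myostatin pathways were taken by symbol from the 20950 entries of the expression table, and each symbol was found. C2C12 is a line of mouse myoblasts, described by the labels as skeletal muscle, that fuses into myotubes when serum is withdrawn. Growing cells were kept in DMEM with 10% FBS (fetal bovine serum; 1 library). Cells switched before confluence to differentiation medium received DMEM with 2% HS (horse serum; 1 library), 2% HS + exosome (1 library), 0.2% FBS (1 library) or 0.2% FBS + exosome (2 libraries, replicates 1 and 2). The exosomes, membrane vesicles released by cells, were prepared from FBS and added in the amount that 10% FBS contains. The sources do not say whether the exosome replicates were separate cultures, so their spread may be technical, and the hour of harvest was not given. The paper mentions 2 batches of exosomes without saying which a library received, so the replicates may also differ in that. The study asked whether serum exosomes hold back differentiation.

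Ligands of the TGF-beta family bind pairs of membrane receptors, which phosphorylate Smad proteins that enter the nucleus with Smad4. BMPs signal through Smad1, Smad5 and Smad9, and TGF-beta, activins and myostatin through Smad2 and Smad3. In muscle, BMP signalling raises the Id genes, whose products bind E proteins and keep MyoD from forming active dimers, while myostatin and activin A restrain muscle growth and follistatin neutralises both.

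Values are FPKM, reads divided by transcript length and by the mapped reads of the library, so levels can be set side by side between genes. Changes are differences of log2(FPKM + 1), and a gene was called by fold where the change passed 1 or -1 in each exosome library. The study also used a log2 fold change of 1 or -1. The added 1 FPKM and the demand on each library were set here. By the mean of both exosome libraries in 0.2% FBS, Id1 (1.12) and Fst (-1.27) would pass as well as Id3. Library totals ran from 461439 to 515215 FPKM, and the depth estimated from the spacing of low values was 33800000 to 39400000 reads. Myoblast and muscle markers were present in each library, with Myod1 between 83.7 and 110 FPKM and Cdh15 between 123 and 153. Of 10 markers of endothelial, blood, epithelial, fat and Schwann cells, 8 stayed below 0.2 FPKM in every library, and the list summed to between 1.75 and 2.71 FPKM, most of it Cd68. Replicate 2 of 0.2% FBS + exosome stood apart from replicate 1 in its immediate-early genes, which serum induces within minutes. The 12 genes of that list summed to 487 FPKM in replicate 2 and 171 in replicate 1, against 172 in 0.2% FBS, 170 in 2% HS, 171 in 2% HS + exosome and 584 in 10% FBS.

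On mm10, GENCODE vM21 places Id1 on chromosome 2 (152736251 to 152737410, plus strand), Id2 on chromosome 12 (25093799 to 25097140, minus) and Id3 on chromosome 4 (136143497 to 136145755, plus). Smad6 lies on chromosome 9 (63953076 to 64022059, minus) and Skil on chromosome 3 (31095058 to 31122577, plus). Mstn lies on chromosome 1 (53061640 to 53068079, plus), Inhba on chromosome 13 (16011851 to 16031621, plus) and Fst on chromosome 13 (114452290 to 114458951, minus). The antisense gene Gm47040 overlaps exons of Fst, and the strand setting used for FPKM is not given in the sources used here, so reads of that gene could be part of the Fst value.

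The promoters of Id3, Smad6 and Id2 are shown because Id3 carried the largest change among the 9 genes, Smad6 is a textbook BMP target, and Id2 is the Id gene called by fold in 2% HS. Promoters of 5 of the 9 genes were searched, taken from RefSeq (GRCm38.p6) as 250 bases before the transcription start and 50 from it on. That count is of the promoters kept for the search and is no measure of what RefSeq holds. Capitals mark the motif named after each position. The searched motifs were CAGAC (a Smad box), GTCTAGAC (the palindromic Smad box), GGCGCC (a GC-rich Smad motif) and the E-box CANNTG, which bHLH factors bind, each on both strands. The E-box is not marked, and none of the marked stretches overlaps another. Id3 is shown for chr4:136143572-136143871 on the plus strand with CAGAC or its complement, Smad6 for chr9:64022010-64022309 on the minus strand with GTCTAGAC, and Id2 for chr12:25096043-25096342 on the minus strand with GGCGCC.
Id3: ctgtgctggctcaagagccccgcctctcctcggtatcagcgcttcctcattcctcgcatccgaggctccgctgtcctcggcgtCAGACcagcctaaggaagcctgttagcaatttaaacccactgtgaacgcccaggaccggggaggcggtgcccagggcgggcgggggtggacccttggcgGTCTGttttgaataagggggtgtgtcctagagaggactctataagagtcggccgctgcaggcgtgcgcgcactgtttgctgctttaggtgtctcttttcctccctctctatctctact
Smad6: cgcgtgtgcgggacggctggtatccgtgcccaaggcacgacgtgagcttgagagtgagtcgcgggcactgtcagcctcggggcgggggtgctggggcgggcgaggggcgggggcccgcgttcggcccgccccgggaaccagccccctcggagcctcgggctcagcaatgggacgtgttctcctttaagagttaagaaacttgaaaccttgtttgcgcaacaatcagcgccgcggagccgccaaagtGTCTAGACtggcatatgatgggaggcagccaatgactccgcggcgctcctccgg
Id2: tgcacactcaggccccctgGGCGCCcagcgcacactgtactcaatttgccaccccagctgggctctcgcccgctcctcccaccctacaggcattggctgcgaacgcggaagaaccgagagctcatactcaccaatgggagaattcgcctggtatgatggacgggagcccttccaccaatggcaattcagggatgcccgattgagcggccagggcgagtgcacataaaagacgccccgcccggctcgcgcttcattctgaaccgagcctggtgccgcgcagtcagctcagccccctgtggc
Id3 held 2 copies of CAGAC, and 49.6% of 32851 mouse promoters of this length hold at least 1. The palindrome in Smad6 occurred in 0.213% of the promoters, 70 in number, and the GC-rich motif of Id2 in 11.9%. The E-box, held by 72.3% of the promoters, occurred 0 times in the Id3 window and 1 time each in those of Smad6 and Id2. These matches describe the letters of the windows only.

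Id1 and Id3 were higher in growing cells and in both libraries of 0.2% FBS + exosome than in the other 3 libraries. Id3 stood at 65.9 FPKM in 10% FBS, 8.50 in 2% HS, 7.80 in 2% HS + exosome and 15.0 in 0.2% FBS. In 0.2% FBS + exosome it stood at 37.9 FPKM in replicate 1 and 123 in replicate 2. Both exosome libraries lay above the 0.2% FBS library, replicate 1 below and replicate 2 above growing cells. On the log2(FPKM + 1) scale Id3 was higher with exosomes by 1.28 and 2.96, a mean of 2.12 ± 1.19 (SD, n = 2), and the mean FPKM was 5.38 times that of 0.2% FBS. The replicates were farther from each other than replicate 1 was from the control. In these bulk samples, a change in the share of cells that express a gene and a change in RNA per cell cannot be told apart.

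Id1 stood at 27.4 FPKM in 10% FBS, 14.7 in 2% HS, 13.2 in 2% HS + exosome and 15.7 in 0.2% FBS, and at 29.3 and 42.6 in replicates 1 and 2 of 0.2% FBS + exosome. Both exosome libraries in 0.2% FBS were above all 4 other libraries. Id1 was higher with exosomes by 0.86 and 1.39, a mean of 1.12 ± 0.37 (SD, n = 2). Id2 stood at 9.92 FPKM in 10% FBS, 8.32 in 2% HS, 3.29 in 2% HS + exosome, 6.06 in 0.2% FBS, and 6.66 and 10.2 in 0.2% FBS + exosome. Its change with exosomes in 0.2% FBS was 0.12 and 0.67, so that replicate 1 lay close to the control. Id4, the remaining Id gene, was listed at 0 in all 6 libraries.

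limma, fitted across 10726 genes with 1 mean per condition and Benjamini-Hochberg adjustment, gave an adjusted p of 0.0209 for Id1 (SE 0.22), 0.0375 for Id3 (SE 0.53) and 0.282 for Id2 (SE 0.23). Its 1 residual degree of freedom comes from the replicates of 0.2% FBS + exosome, and the single libraries are assumed to vary as these did. The median change of all 10731 genes averaging 1 FPKM or more was 0.14 in this comparison, and 0.01 after the libraries were scaled to the same 75th percentile. After that scaling the changes were 0.98 for Id1, 1.98 for Id3 and 0.26 for Id2, and the adjusted p of Id3 in limma was 0.063, past the threshold of 0.05, while Id1 stayed below it. When the fit took in all genes above 0 in any library, limma called none, and the adjusted p was 0.287 for Id1 and 0.397 for Id3.

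Other transcripts moved in these libraries as well. The summed level of Id1, Id2 and Id3 was 36.7 FPKM in 0.2% FBS, 73.8 in replicate 1 and 176 in replicate 2, and 103 in 10% FBS. The immediate-early sum was 172 FPKM in 0.2% FBS, 171 in replicate 1 and 487 in replicate 2. Within that list Fos was called higher by fold, from 3.04 FPKM in 0.2% FBS to 8.03 in replicate 1 and 100 in replicate 2 (1.16 and 4.65). Of the 12 genes, 6 lay above the control in each exosome library and 2 below it, Atf3 (-0.93) and Egr3 (-0.58). The rest were below it in replicate 1 and above it in replicate 2. Blood and liver transcripts (4 of 6 in the table) summed to 3.97 FPKM in 0.2% FBS, 9.33 in replicate 1 and 20.6 in replicate 2, which was mostly the platelet chemokine Ppbp, with Alb at 0 throughout. The part of either list in the Id values was not tested.

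**Figure D1:**
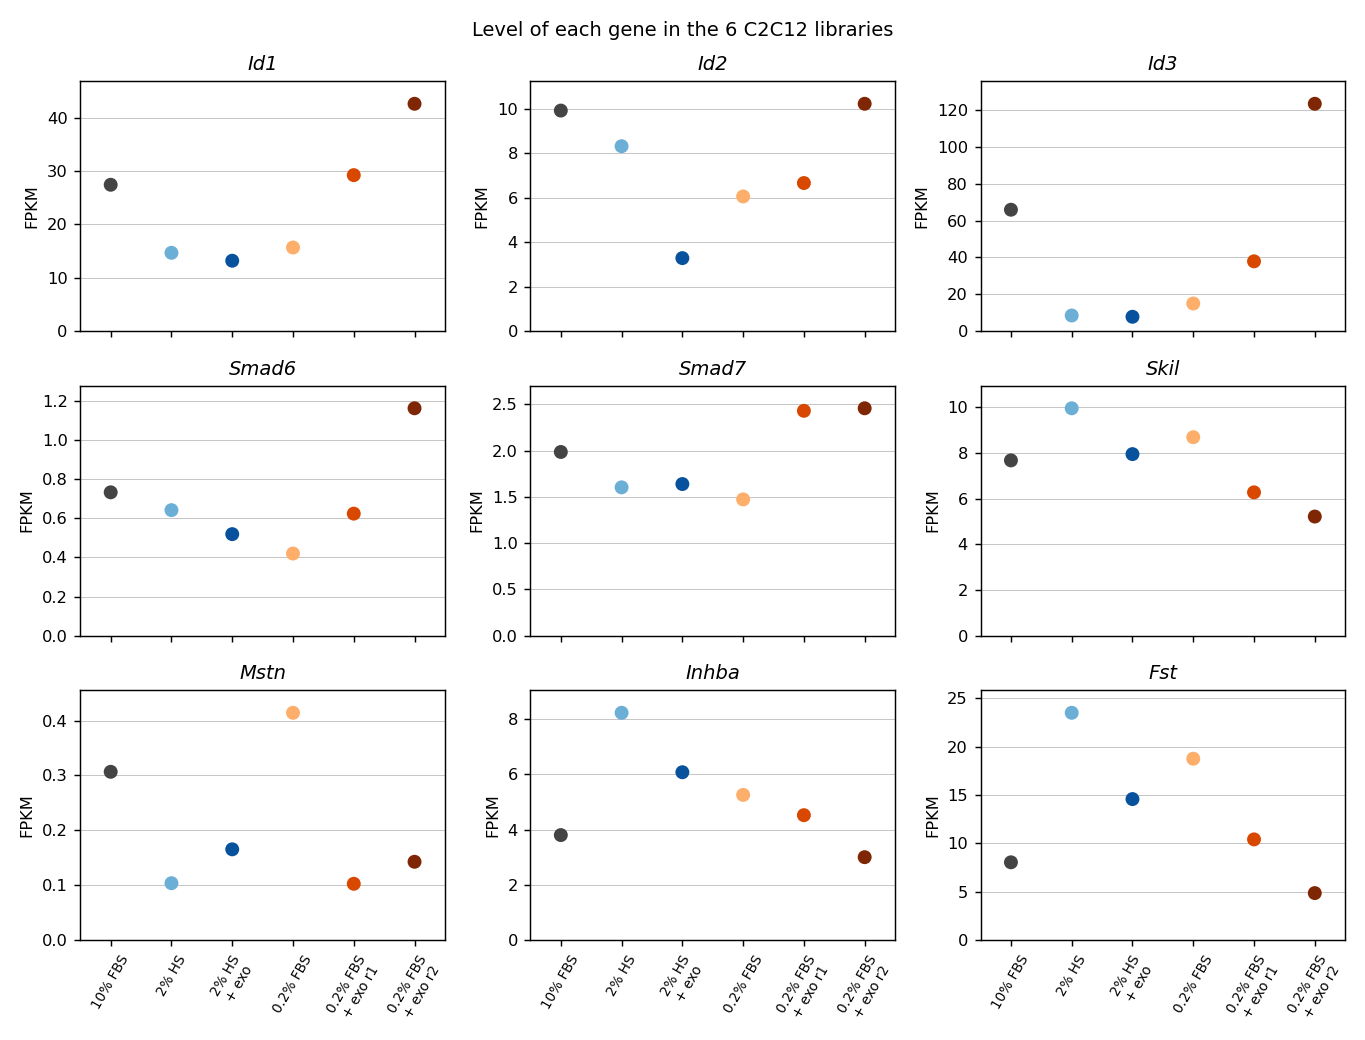
FPKM (vertical axes, from 0, a scale for each gene) of the 9 genes in the 6 libraries, 1 point per library. Id1 and Id3 are high in 10% FBS and in both libraries of 0.2% FBS + exosome, where Id3 reaches 37.9 and 123 FPKM, Fst is low in the same 3 libraries, and Mstn stays below 0.5 FPKM.

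In 2% HS, Id2 was the Id gene past the threshold. It was lower with exosomes by 1.12 on the log2(FPKM + 1) scale, 0.395 times its level in 2% HS, whereas Id1 changed by -0.14 and Id3 by -0.11. Each of these medium-specific values rests on 1 library against 1 and has no replicate check. The difference between the exosome effects of the 2 media was 1.51 for Id2 (SE 0.35, adjusted p = 0.0772 by limma), 1.27 for Id1 (SE 0.34, adjusted p = 0.105) and 2.23 for Id3 (SE 0.81, adjusted p = 0.19). None of the 3 passed the threshold of 0.05, so the Id genes are not shown to respond differently in the media.

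Id3 was also lower in low serum without exosomes. Its difference from 10% FBS was -2.06 in 0.2% FBS and -2.82 in 2% HS, and that of Id1 was -0.77 and -0.86, without passing the threshold of 1. The share of Id3 in the summed Id level was 63.8% in 10% FBS, 27.0% in 2% HS, 32.1% in 2% HS + exosome and 40.8% in 0.2% FBS. In 0.2% FBS + exosome it was 51.3% and 70.0%. Id1 held the largest share in 2% HS, 2% HS + exosome and 0.2% FBS, and Id3 in the other 3 libraries. These comparisons share their control libraries with the exosome effects.

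The inhibitory Smads had low transcript levels. Smad7 (chromosome 18, 75367529 to 75395935, plus strand), which blocks receptors of both branches, stood at 1.99 FPKM in 10% FBS, 1.60 in 2% HS, 1.64 in 2% HS + exosome and 1.47 in 0.2% FBS, and at 2.43 and 2.46 in 0.2% FBS + exosome. Both exosome libraries in 0.2% FBS were the highest of the 6, and the replicates nearly coincided. The change was 0.48 ± 0.01 (SD, n = 2), 0.38 after scaling, and limma, which sets the error of a gene partly from genes of like level, gave an adjusted p of 0.115. Smad6, which acts mainly against BMP receptors, stood at 0.733, 0.642, 0.519 and 0.420 FPKM in 10% FBS, 2% HS, 2% HS + exosome and 0.2% FBS, and at 0.624 and 1.16 in 0.2% FBS + exosome. At the estimated depth these are about 80, 69, 49, 43, 61 and 109 reads. The exact 95% Poisson interval was 31.1 to 57.9 for the 43 reads in 0.2% FBS, 46.7 to 78.4 for the 61 reads of replicate 1 and 89.5 to 131 for the 109 of replicate 2. The interval of replicate 1 thus overlapped that of the control and the interval of replicate 2 did not. These intervals cover counting error only.

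Skil encodes SnoN, which represses genes bound by Smad complexes and is itself a TGF-beta target. It stood at 7.68 FPKM in 10% FBS, 9.96 in 2% HS, 7.95 in 2% HS + exosome and 8.69 in 0.2% FBS, and at 6.28 and 5.22 in 0.2% FBS + exosome. The exosome libraries in 0.2% FBS were the lowest of the 6. The change was -0.53 ± 0.16 (SD, n = 2), -0.66 after scaling, with an adjusted p of 0.0794 by limma, and it was -0.29 in 2% HS. Smad7 and Skil therefore lay on opposite sides of the 0.2% FBS control in each exosome library, at sizes that did not pass the test.

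Among the ligands and their antagonist, Fst had the largest change with exosomes in 0.2% FBS on the log2(FPKM + 1) scale, while by the ratio of mean FPKM that of Mstn was larger (0.296 against 0.408). Fst, which encodes follistatin, stood at 8.04 FPKM in 10% FBS, 23.5 in 2% HS and 18.7 in 0.2% FBS. With exosomes it stood at 14.6 FPKM in 2% HS and at 10.4 and 4.87 in 0.2% FBS. Every exosome library lay below the control of its medium, and replicate 2 below growing cells. The change in 0.2% FBS was -0.79 and -1.75, a mean of -1.27 ± 0.68 (SD, n = 2; adjusted p = 0.0411 by limma), and it was -0.65 in 2% HS. After scaling to the same 75th percentile the mean in 0.2% FBS was -1.40 with an adjusted p of 0.0517 by limma, and with all genes above 0 in the fit the adjusted p was 0.387. The difference of Fst between the media was -0.62 (SE 0.50, adjusted p = 0.532 by limma). Against 10% FBS, Fst was higher by 1.13 in 0.2% FBS and by 1.44 in 2% HS.

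Muscle markers went in both directions beside Fst. The 8 genes of the list of myoblast and muscle markers, most of the sum being Des, Ckm and Myog, summed to 2714 FPKM in 0.2% FBS and to 1561 and 1508 with exosomes, and to 2761 in 2% HS, 2476 in 2% HS + exosome and 1750 in 10% FBS. Of the 7 that averaged 1 FPKM or more, 5 were below the 0.2% FBS control in each exosome library and 2 above it, Myf5 (0.96) and Cdh15 (0.29). The 5 were Myh1 (-1.69), Ckm (-1.13), Des (-0.92), Myog (-0.82) and Myod1 (-0.23). Myh1 was called lower by fold, at -1.49 and -1.88. The median of the 7 was -0.82, beside 0.14 over all genes, and -0.97 after scaling, beside 0.01. The part of these markers in the Fst values was not tested.

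Inhba encodes the subunit that pairs to form activin A. It stood at 3.80 FPKM in 10% FBS, 8.22 in 2% HS, 6.07 in 2% HS + exosome and 5.25 in 0.2% FBS, and at 4.52 and 3.00 in 0.2% FBS + exosome. Like Fst it was highest in 2% HS and lowest in replicate 2 of 0.2% FBS + exosome. The change with exosomes was -0.41 ± 0.33 (SD, n = 2) in 0.2% FBS (adjusted p = 0.232 by limma) and -0.38 in 2% HS. Against 10% FBS, Inhba was higher by 0.94 in 2% HS, just short of the threshold, and by 0.38 in 0.2% FBS.

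Mstn, which encodes myostatin, was the lowest of the 9 genes in every library. It stood at 0.307, 0.104, 0.166 and 0.414 FPKM in 10% FBS, 2% HS, 2% HS + exosome and 0.2% FBS, and at 0.103 and 0.143 in 0.2% FBS + exosome. These are about 30, 10, 14, 38, 9 and 12 estimated reads. The exact 95% Poisson interval of the 38 reads in 0.2% FBS, 26.9 to 52.2, did not overlap that of the 9 reads in replicate 1 (4.12 to 17.1) or of the 12 in replicate 2 (6.20 to 21.0). The mean with exosomes in 0.2% FBS was 0.296 times the control, which the log2(FPKM + 1) scale gives as -0.33. In 2% HS the intervals of 10 reads (4.80 to 18.4) and of 14 with exosomes (7.65 to 23.5) overlapped, so no difference was detectable there at this depth. Without replicate controls in 0.2% FBS, the Mstn value of that medium rests on 1 library.

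**Figure D2:**
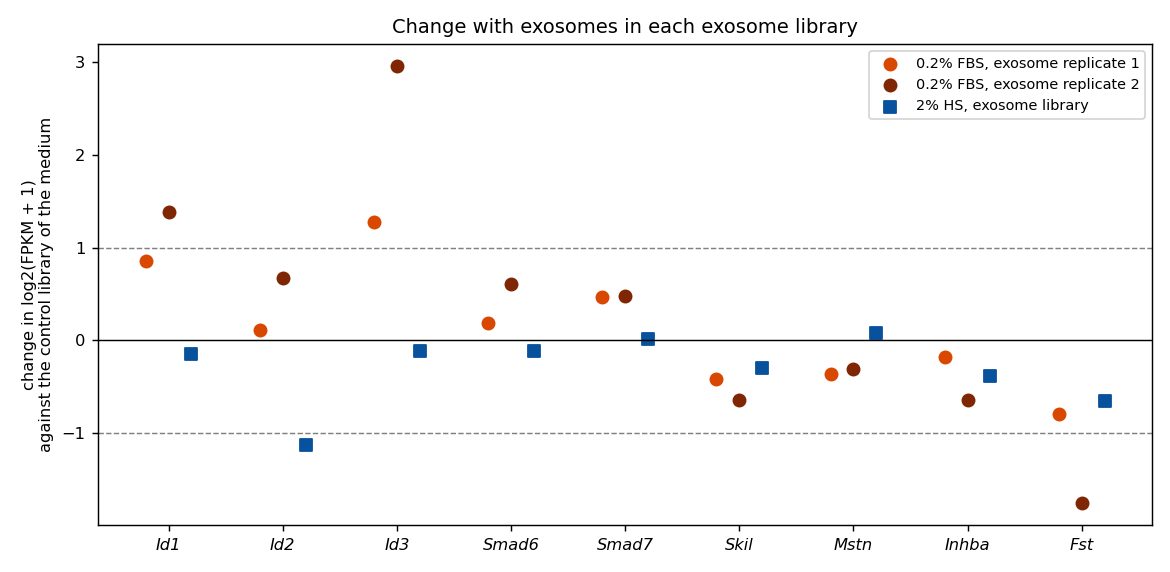
Change in log2(FPKM + 1) of each gene in each exosome library against the control library of the same medium, with dashed lines at the threshold of 1 and -1. Id3 is past the line in both replicates of 0.2% FBS (1.28 and 2.96), Id1 and Fst only in replicate 2, and Id2 is past it in 2% HS (-1.12).

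By the fold threshold, Id3 was the member called in 0.2% FBS. That is 1 of 9 genes higher, where 0.458% of the 20950 entries were called higher, and 0 of 9 lower, where 0.835% were. Those calls split into 96 higher and 175 lower, and into 50 and 229 after scaling to the same 75th percentile, under which Id3 stayed called. Among the 10731 genes averaging 1 FPKM or more there were 96 higher and 173 lower. The entries include 4500 at 0 in every library, so each share of entries given for a fold call would be larger among those 10731 genes. Without replicate 1, Fst, Id1 and Id3 passed the threshold, and without replicate 2 only Id3. In 2% HS, 1 of 9 was lower (Id2, against 0.158% of the entries) and 0 of 9 higher (against 0.186%). limma called 12.5% of 10726 genes for the exosome effect in 0.2% FBS, 879 higher and 464 lower, and 470 and 681 after scaling. Among the members it called Id1, Id3 and Fst, and Smad6 and Mstn, with means below 1 FPKM, were not in the fit. The 9 genes were chosen with earlier results known, so these counts are descriptions.

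limma called 1.17% of the genes for a difference between the media, none of them a member. With a single exosome effect for both media, fitted over the 5 differentiating libraries, limma called 0.0% of the genes, while 708 had an unadjusted p below 0.05. In that fit Fst changed by -1.01 (unadjusted p = 0.0131) and Skil by -0.43 (unadjusted p = 0.0335), each with an adjusted p of 0.705. Id1 changed by 0.58, Id3 by 1.16 and Id2 by -0.26, with adjusted p from 0.705 to 0.82.

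Between low serum and growth medium, Fst and Id3 were the members called. In 0.2% FBS against 10% FBS, Fst was called higher, as were 0.931% of the entries, and Id3 lower, as were 0.368%. In 2% HS against 10% FBS, Fst was again called higher, as were 0.945% of the entries, and Id3 lower, as were 0.267%. No member was called between 0.2% FBS and 2% HS, where 0.129% of the entries were higher and 0.167% lower. Id3 was 0.75 higher in 0.2% FBS on the log2(FPKM + 1) scale, and Mstn 0.36 higher, which is 3.99 times its level in 2% HS.

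The last comparison sets exosome-treated cells beside growing cells. No member was called between 0.2% FBS + exosome and 10% FBS, where 0.105% of the entries were higher and 0.00477% lower (22 and 1, and 19 and 7 after scaling). Id3 differed from 10% FBS by -0.78 in replicate 1 and 0.89 in replicate 2, and Fst by 0.34 and -0.62, so each lay on either side of growing cells. Id1 differed by 0.09 and 0.62. With 2 libraries against 1, a lack of calls does not show that the levels were equal.

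The order of the 9 levels was steady at the low end. Smad7, Smad6 and Mstn were the lowest, in this order, in all 6 libraries, and Id1 had the second highest FPKM in all 6. The highest was Fst in 2% HS, 2% HS + exosome and 0.2% FBS, and Id3 in 10% FBS and both libraries of 0.2% FBS + exosome.

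The wider pathway was read from 8 lists of 96 genes grouped by role, each described by its genes that averaged 1 FPKM or more. Of 20 ligands, 9 reached that level. Their median change with exosomes was -0.09 in 0.2% FBS and -0.06 in 2% HS, beside 0.14 and -0.04 over all genes. After scaling to the same 75th percentile the ligand median in 0.2% FBS was -0.23, beside 0.01 over all genes. Inhbb, which encodes the subunit of activin B, had the largest change of the list in 0.2% FBS, from 2.76 FPKM to 5.30 and 6.19, and was called by limma (0.84, adjusted p = 0.025). In 2% HS, Gdf15, a stress-induced distant family member, was called higher, from 11.1 to 42.6 FPKM, and stood at 8.69 and 8.43 with exosomes in 0.2% FBS against 11.1 without. Its effects in the media differed by -2.19 (SE 0.24, adjusted p = 0.0127 by limma), with 1 library against 1 in 2% HS. With all genes above 0 in the fit, the adjusted p of Gdf15 was 0.359. Bmp2, Bmp6 and Bmp7 stayed below 0.03 FPKM, and Bmp4 lay between 0.198 and 0.634.

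Of 14 receptors, 8 reached 1 FPKM, with a median change of 0.08 in 0.2% FBS and 0.02 in 2% HS, beside 0.14 and -0.04 over all genes. The receptor median in 0.2% FBS was -0.06 after scaling, so its sign depends on the scaling. Tgfbr1, the type I receptor of TGF-beta, went from 9.04 FPKM to 15.8 and 16.2 with exosomes in 0.2% FBS (0.76, adjusted p = 0.0222 by limma). Acvr1, a type I receptor of BMPs named after its value was seen, went from 15.1 to 23.8 and 25.8 FPKM (0.68, adjusted p = 0.0306). After scaling the adjusted p of Acvr1 was 0.0536, and Tgfbr1 stayed below the threshold. The BMP receptors Bmpr1a and Bmpr2 changed by 0.07 and -0.19. The signal-carrying Smads had a median of 0.07 over 5 of 6 genes, which was -0.06 after scaling, and the largest change among them was that of Smad4, 0.45. None of these 5 was called.

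The extracellular antagonists and latent binding proteins had a median of 0.42 in 0.2% FBS over 13 of 21 genes (0.28 after scaling) and -0.15 in 2% HS, beside 0.14 and -0.04 over all genes. Grem1, which encodes gremlin, a secreted BMP antagonist, stood at 22.9 FPKM in 10% FBS, 19.1 in 2% HS, 17.7 in 2% HS + exosome and 14.6 in 0.2% FBS. In 0.2% FBS + exosome it stood at 36.7 and 48.2 FPKM, above all other libraries. It was the 1 gene of the list called by the fold threshold (1.27 and 1.65, adjusted p = 0.00766 by limma). limma also called Ltbp2 (1.02, adjusted p = 0.0412) and Ltbp3 (0.86, adjusted p = 0.0218), which encode proteins of the latent TGF-beta complex and fibrillin matrix, and Fst in the other direction. Ltbp3 was named after its value was seen, and the adjusted p of Ltbp2 after scaling was 0.0688. Follistatin and gremlin transcripts thus lay on opposite sides of the control in both exosome libraries of 0.2% FBS.

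Of 12 BMP target genes, 7 reached 1 FPKM, Id1, Id2, Id3 and Smad7 among them. Their median change was 0.59 in 0.2% FBS (0.49 after scaling) and -0.11 in 2% HS, beside 0.14 and -0.04 over all genes. Since 4 of the 7 are members, this is no independent account of the Id genes, and Hey1 reached the mean of 1 FPKM through the libraries in which it was high. The other 3 were Hey1, Atoh8 and Msx1, with changes of 0.93, 0.59 and 0.21 in 0.2% FBS, none of them called. Hey1, also a Notch target, stood at 2.84 FPKM in 10% FBS, 0.513 in 0.2% FBS, and 1.12 and 2.93 with exosomes.

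Of 12 TGF-beta target genes, 10 reached 1 FPKM and their median change was 0.01 in 0.2% FBS, and -0.13 after scaling, beside 0.14 and 0.01 over all genes. Ltbp2 and Postn were called higher there by limma (Postn 1.00, adjusted p = 0.0285, named after its value was seen), and the adjusted p of Postn after scaling was 0.0618. In 2% HS the median was -0.26. The 9 measured intracellular inhibitors, of 11, had a median of 0.31 in 0.2% FBS, which was 0.17 after scaling, and -0.05 in 2% HS. Smurf2, a ubiquitin ligase that targets Smads and receptors, was called among them by limma (0.57, adjusted p = 0.0484), and its adjusted p after scaling was 0.0947.

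The table also lists transcripts of the partners that Id proteins bind. Of 7 genes for E proteins and myogenic bHLH factors, 6 reached 1 FPKM and their median change was 0.43 in 0.2% FBS (0.29 after scaling) and -0.10 in 2% HS, beside 0.14 and -0.04 over all genes. The E protein genes Tcf3, Tcf4 and Tcf12 changed by 0.57, 0.45 and 0.41 in 0.2% FBS, none of them called. Myf5, a factor of undifferentiated myoblasts, went from 5.39 FPKM to 10.1 and 12.9 and was called by limma (0.96, adjusted p = 0.0196). Myod1 changed by -0.23 and Myog by -0.82.

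**Figure D3:**
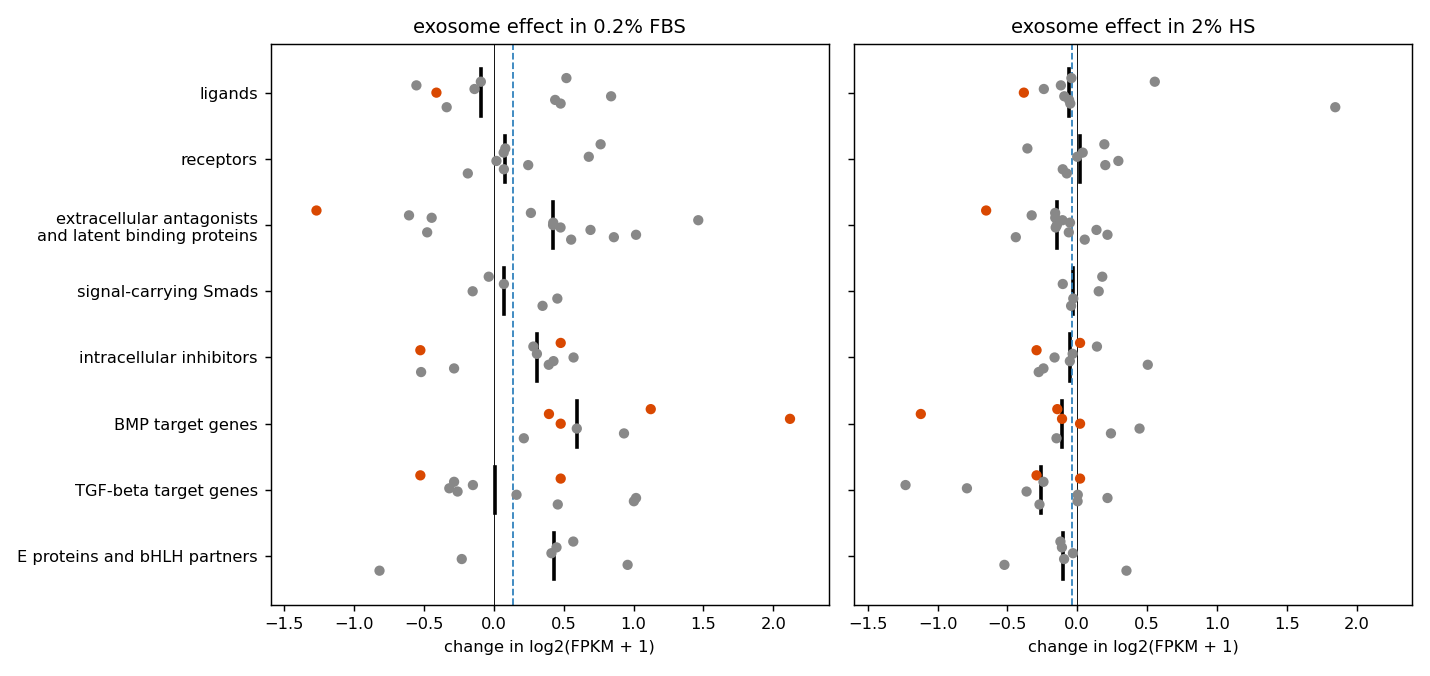
Change in log2(FPKM + 1) with exosomes in 0.2% FBS (left, mean of both replicates) and 2% HS (right) for genes of 8 role lists that averaged 1 FPKM or more, 1 point per gene, members in orange. Black bars are list medians and the dashed line is the median of all genes (0.14 and -0.04); the BMP target genes have a median of 0.59 in 0.2% FBS and -0.11 in 2% HS.

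For the 7 members that averaged 1 FPKM or more, the 3 genes with the nearest profile were those with the smallest root mean square difference of log2(FPKM + 1) after centring over the 6 libraries. Id1 was followed most closely by Dbp (0.056), Blnk (0.056) and Ftl1 (0.068), with Ftl1, the ferritin light chain, at 962 FPKM in 0.2% FBS and at 1598 and 2225 with exosomes. Id2 was nearest to Mgst3 (0.17), S100a4 (0.21) and S100a13 (0.22). S100a4 had the same low in 2% HS + exosome, 1014 FPKM against 1611 in 2% HS. The genes nearest to Id3 were farther off by this distance, the chemokine gene Cxcl1 (0.40), then Ifitm1 (0.62) and Rasl11a (0.68). The distance is not scaled to the size of a profile. The root mean square of the member's own centred profile was 1.43 for Id3, 0.59 for Id1, 0.47 for Id2 and 0.19 for Smad7. The Pearson correlation was 0.988 between Id3 and Cxcl1 and 0.958 between Id2 and Mgst3. Cxcl1 stood at 5.46 FPKM in 0.2% FBS and at 16.1 and 35.1 with exosomes.

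Fst was nearest to the muscle creatine kinase gene Ckm (0.18), Rrad (0.19) and Anxa8 (0.20). Ckm stood at 356 FPKM in 10% FBS, 847 in 2% HS, 675 in 2% HS + exosome and 734 in 0.2% FBS, and at 392 and 288 in 0.2% FBS + exosome. Inhba was nearest to Folr1 (0.05), Popdc2 (0.07) and Fam132b (0.09), Skil to Larp1b (0.05), Rrm1 (0.06) and Mpp5 (0.06), and Smad7 to Rcn1, Ttc8 and Asap1 (0.03 each). The 6 points of each profile share libraries and conditions, so the likeness is a description.

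**Figure D4:**
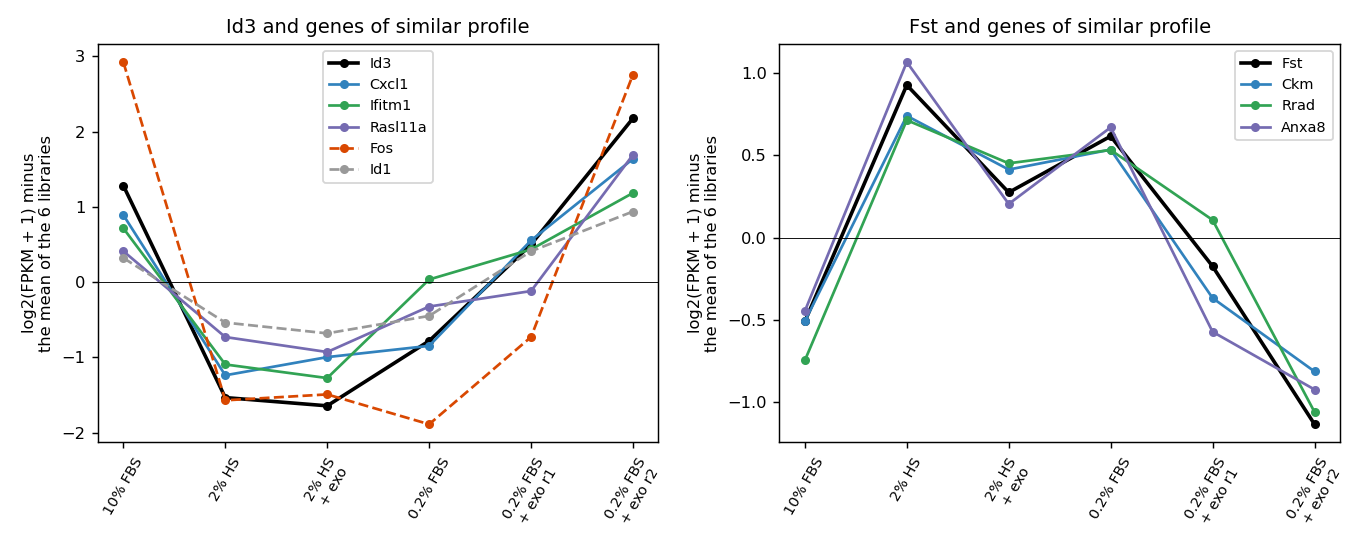
log2(FPKM + 1) minus the mean of the 6 libraries for Id3 (left) and Fst (right) with their 3 nearest genes, and on the left Id1 and Fos as dashed lines; lines join the points of a gene and the libraries have no order. Id3, Cxcl1 and Fos are each higher in both replicates of 0.2% FBS + exosome than in 0.2% FBS, and Ckm follows Fst with a root mean square difference of 0.18.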

How the data were processed

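Stranded mRNA libraries of C2C12 cells (TruSeq kit, 75 bp single-end reads, NextSeq500) were made for 6 samples. The labels name a miRNeasy kit for the RNA and the paper an RNeasy kit. The authors trimmed reads with cutadapt 1.9.1, mapped them to mm10 with TopHat2 2.1.0, computed FPKM with Cufflinks and deposited 1 FPKM table. FPKM divides by transcript length and mapped reads, so it is relative to all RNA of a library. The annotation and strand setting are not given in the sources used here.

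Values were compared as log2(FPKM + 1), which understates changes at low FPKM, most of all below about 1 FPKM. Smad7, which averaged 1.93 FPKM, changed by 0.48 with exosomes in 0.2% FBS, and by 0.69 with a pseudocount of 0.1. A gene was called where the change passed 1 or -1 in each exosome library. The size of 1 is that of the study, and the demand on each library was added here. limma 3.58.1 (R 4.3.3) was fitted with a mean-variance trend and Benjamini-Hochberg adjustment over 10726 genes that averaged 1 FPKM or more (5 repeated names were left out). It was also run on simulated data in which all libraries had the same spread. That run could not check the spread assumed for the single libraries. Depth was estimated as the read number at which low FPKM values of 2442 single-transcript genes lie nearest to whole reads, assuming fragments of 200 bases. Between 69.8% and 72.3% of low values lay within 0.1 of a whole read, where 20.0% would by even spacing. Read intervals use these estimates.

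The members and gene lists were chosen with earlier results of these data known. Named were all members, list genes called by the fold threshold in either medium, the largest change of each list in 0.2% FBS and the 3 nearest profiles per member. A list gene that this rule names is not reported here. Any other gene was named with its values known. Alternatives were a pseudocount of 0.1, a floor of 1 FPKM, scaling to the 75th percentile, other filters and leaving out each exosome replicate.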

Additional observations from a re-analysis of the deposited data

Results flagged for a closer look

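The exosome effects in 0.2% FBS and 2% HS differed for Gdf15 and Atf3 by limma's test of the difference. Taking the 2% HS value from the 0.2% FBS value gave -2.19 for Gdf15 on the log2(FPKM + 1) scale (adjusted p = 0.0127), and -2.65 for Atf3, an immediate-early gene also induced by stress (adjusted p = 0.0296). Atf3 stood at 5.85 FPKM in 2% HS and 21.7 in 2% HS + exosome, and at 6.63 in 0.2% FBS and 4.15 and 2.13 in 0.2% FBS + exosome. Each difference rests on 1 library against 1 in 2% HS, whose spread is assumed equal to that of the exosome replicates in 0.2% FBS. With all genes above 0 in any library in the fit, the adjusted p was 0.359 for Gdf15 and 0.365 for Atf3, so both calls were lost.

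Smad6 and Mstn lay on opposite sides of their controls in the media in every exosome library. The difference between the media was 0.51 for Smad6, higher in both exosome libraries of 0.2% FBS and lower in 2% HS. It was -0.41 for Mstn, lower in both of 0.2% FBS and higher in 2% HS. In 2% HS the exact 95% Poisson intervals of the estimated reads overlapped with and without exosomes for both genes (36.3 to 64.8 and 53.7 to 87.3 for Smad6), so no direction is shown there. Both genes had a mean below 1 FPKM and were outside the reported limma fit. The fit with all genes above 0 in any library called no gene for the difference between media.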

How the results depend on the processing

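No called value of a member changed sign under the alternatives run. With a pseudocount of 0.1 FPKM, the entries called numbered 653 for exosomes in 0.2% FBS (271 as reported), 347 in 2% HS (72), 830 for 0.2% FBS against 10% FBS (272), 733 for 2% HS against 10% FBS (254), 401 for 0.2% FBS against 2% HS (62) and 167 for 0.2% FBS + exosome against 10% FBS (23). With values below 1 FPKM raised to 1 they numbered 415, 124, 441, 111 and 67, the 2% HS against 10% FBS comparison staying within 1.5 times. Members called in 0.2% FBS numbered 2 with a pseudocount of 0.1 (Id3 and Mstn, Mstn at -1.21), and 1 between 0.2% FBS and 2% HS (Mstn, 1.34) where none was reported. Inhba in 2% HS against 10% FBS was 1.09 with that pseudocount and 1.11 with the floor. Leaving out an exosome replicate gave 343 to 628 entries and 1 to 3 members called in 0.2% FBS, and 93 to 116 entries for 0.2% FBS + exosome against 10% FBS. In the last comparison the uncalled values of Id2, Id3, Smad6, Inhba and Fst changed sign when a replicate was left out (Id2 without replicate 1, at 0.04, and the others without replicate 2), and that of Id3 was -0.02 after scaling. With all genes above 0 in any library, limma called 0 genes for the exosome effect in 0.2% FBS (1343 as reported; 3120 had an unadjusted p below 0.05) and 0 for the difference between media (125; 2275), and the adjusted p values were 0.287 for Id1, 0.397 for Id3 and 0.387 for Fst. The prior degrees of freedom of that fit were 1.03, against 7.27 in the reported fit. No paired analysis was possible because the groups share fewer than 2 replicate numbers. The single control library of each medium limits every exosome effect, and about 9 to 38 reads limit Mstn.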
